A study of Mus musculus with 8 samples.

Results

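Pxdn encodes peroxidasin, an enzyme of the basement membrane, and it was examined together with 8 genes of the same matrix: the collagen IV chains Col4a1 and Col4a2, the laminin chains Lama1, Lama3, Lama5 and Lamb3, the nidogen gene Nid1 and Hspg2, which encodes perlecan. These 9 genes of the 55414 gene IDs in the count table were listed by symbol and were chosen by earlier results of these data, namely the lower level of Pxdn with zinc (adjusted p = 0.0198 by edgeR's quasi-likelihood test). The difference between zinc and water was therefore part of the choice, and for the 9 genes it is given as a description. Only 4 of the 9 had enough counts for the comparison, namely Pxdn, Lama5, Lamb3 and Hspg2.

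The libraries were made from Paneth cells sorted by FACS from the small intestine of C57BL/6J mice. One group of 4 mice drank Milli-Q water, and the other group of 4 mice drank water with 25 mM ZnSO4, both for 7 days. Each mouse gave 1 library, made with a stranded mRNA kit, and the labels name no other allele or agent and give neither age nor sex. The comparison asks which transcripts of Paneth cells differ after zinc in the drinking water.

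A basement membrane is a thin sheet of matrix under an epithelium. Laminins, trimers of an α, a β and a γ chain, and networks of collagen IV form its main layers, while nidogens and perlecan link them. Peroxidasin is a heme peroxidase that joins collagen IV molecules through sulfilimine bonds, and in the intestine both the epithelium and the mesenchyme beneath it are known to supply basement membrane proteins.

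The libraries held 20760764 to 24117111 counts, and 11637 to 12411 genes per library had at least 10 counts. A gene with no counts in a library could still have had a level of up to 0.115 to 0.188 CPM there (the level that 3 counts give; CPM is the count scaled to a common library size with TMM factors). Intervals and limits of this kind cover counting error only, not the spread between mice, and no molecular identifiers are named for these libraries. The zinc-responsive genes Mt1 and Mt2, which encode metallothioneins, and Slc30a1, which encodes a zinc exporter, served as a check of the labels. Mt1 rose by 3.65 ± 0.38 (SE) on the log2 scale, Mt2 by 6.15 ± 0.51 and Slc30a1 by 2.01 ± 0.29 (adjusted p = 0.0259, 0.0198 and 0.0198 by edgeR). The Paneth cell markers, 8 genes including Lyz1 and Defa24, together took 324158 to 624164 CPM in the water libraries and 306731 to 626598 CPM in the zinc libraries. Of 8 fibroblast markers, 7 had 0 counts in every library, and their summed level was 0 to 0.313 CPM with water and 0 with zinc.

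The sequence before the start of the 4 genes with usable counts is shown because these genes carry the results and because zinc-responsive promoters are known for the metal response element. Each stretch is 250 bases long, is given 5′ to 3′ on the strand of the gene, and ends at the base before the exon that holds the RefSeq start. Capitals mark matches to the core of the element, searched as TGCACNC or TGCGCNC on both strands. The windows lay on GRCm39 at chr12:29987357-29987606 (plus strand) for Pxdn, chr2:179867713-179867962 (minus strand) for Lama5, chr1:192984029-192984278 (plus strand) for Lamb3 and chr4:137195829-137196078 (plus strand) for Hspg2.
Pxdn: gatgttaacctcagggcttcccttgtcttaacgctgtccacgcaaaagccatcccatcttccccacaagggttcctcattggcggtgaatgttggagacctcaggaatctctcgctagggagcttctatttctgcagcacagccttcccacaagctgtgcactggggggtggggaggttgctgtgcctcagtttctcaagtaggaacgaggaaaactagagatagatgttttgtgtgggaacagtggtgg
Lama5: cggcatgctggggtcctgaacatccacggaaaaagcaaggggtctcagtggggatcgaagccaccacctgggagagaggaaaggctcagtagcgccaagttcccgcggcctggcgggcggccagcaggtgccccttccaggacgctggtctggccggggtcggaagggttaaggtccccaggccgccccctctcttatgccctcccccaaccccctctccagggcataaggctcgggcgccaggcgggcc
Lamb3: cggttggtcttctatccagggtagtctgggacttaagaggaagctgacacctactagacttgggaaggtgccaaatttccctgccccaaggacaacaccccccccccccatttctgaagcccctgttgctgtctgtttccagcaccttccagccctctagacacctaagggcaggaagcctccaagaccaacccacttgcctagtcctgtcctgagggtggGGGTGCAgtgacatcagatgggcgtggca
Hspg2: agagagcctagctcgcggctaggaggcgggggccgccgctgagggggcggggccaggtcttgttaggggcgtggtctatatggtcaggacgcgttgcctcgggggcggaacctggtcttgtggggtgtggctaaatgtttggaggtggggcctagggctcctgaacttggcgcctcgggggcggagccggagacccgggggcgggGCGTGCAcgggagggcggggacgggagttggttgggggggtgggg

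The Pxdn and Lama5 windows held no match, and the Lamb3 and Hspg2 windows held 1 each. For Lamb3, GENCODE also places exons farther upstream, so its window is before 1 of several annotated starts. Among 32536 RefSeq windows of the same length (GRCm38.p6, without chromosome 18), 21.5% held at least 1 match. In that table, where the Pxdn start lies 428 bases farther downstream, the Pxdn window held 1 match, the Mt1 window 1 and the Mt2 window 3. Of the other listed genes, the Col4a1 window held 2 and the Hspg2 window 1. For Lamb3, 1 window held 1 match and another 0, and the windows of Col4a2, Lama5 and Nid1 held 0. RefSeq windows were found for 7 of the 9 genes, all but Lama1 and Lama3. Lama3 lies on chromosome 18, which was left out. These matches describe letters only and are not binding sites.

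Pxdn (ENSMUSG00000020674, GRCm39 chromosome 12, 29987607 to 30067658, plus strand, 25 merged exons) was the gene of the list with the clearest separation of the groups. Its level was 9.94, 12.3, 13.2 and 14.4 CPM in water replicates 1 to 4 and 5.94, 2.95, 2.41 and 4.89 CPM in zinc replicates 1 to 4. Every water library was higher than every zinc library. The libraries nearest to each other were water replicate 1, with 159 counts and an exact Poisson 95% interval of 8.46 to 11.6 CPM, and zinc replicate 1, with 100 counts and an interval of 4.83 to 7.22 CPM.

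The mean level of Pxdn was 12.4 ± 1.87 CPM (SD, n = 4) with water and 4.05 ± 1.65 CPM (SD, n = 4) with zinc. The log2 difference of zinc over water was -1.63 ± 0.25 (SE), which is 3.11-fold higher with water. The relative spread of Pxdn was wider with zinc, with a coefficient of variation of 40.8% against 15.0%. In bulk libraries of this kind, fewer expressing cells and less RNA per cell cannot be told apart. Without water replicate 2, water replicate 3 or zinc replicate 2, the log2 difference was -1.65, -1.61 and -1.51, and Pxdn no longer passed the threshold in edgeR (adjusted p = 0.0807, 0.0850 and 0.0807).

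edgeR called 1 of the 4 genes that passed the low-count filter, Pxdn, where it called 0.0584% of all 11988 genes lower, 0.0250% higher and 0.0834% in either direction. The groups did not overlap for Pxdn and Lamb3, both lower with zinc, against a background of 1.59% of genes without overlap in that direction, 1.24% in the other and 2.84% in either. Because the list was drawn up with the Pxdn result known, nothing is read from these counts.

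Lamb3 (ENSMUSG00000026639, GRCm39 chromosome 1, 192890007 to 193027705, plus strand) encodes the β3 chain of laminin-332, the laminin of firmly anchored epithelia. Its level was 24.1, 25.8, 28.4 and 26.2 CPM with water and 22.3, 21.1, 15.4 and 16.5 CPM with zinc, so that the groups did not overlap on this scale. The means were 26.2 ± 1.76 and 18.8 ± 3.37 CPM (SD, n = 4 each), with a log2 difference of -0.48 ± 0.14 (SE), which was not past the threshold. The highest zinc library and the lowest water library had exact Poisson 95% intervals of 20.1 to 24.7 CPM and 21.8 to 26.7 CPM, which overlapped. On library totals without TMM scaling, Lamb3 ran from 18.4 to 31.8 CPM with water and from 16.2 to 21.0 CPM with zinc, and the groups overlapped. Pxdn stayed apart on that scale, at 7.59 to 17.4 CPM against 2.53 to 5.98 CPM.

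Lama5 (ENSMUSG00000015647, GRCm39 chromosome 2, 179818166 to 179867712, minus strand) encodes the laminin α5 chain, found in laminin-511 and laminin-521 of the intestinal epithelium. The level of Lama5 was 111, 110, 86.1 and 65.9 CPM with water and 105, 96.5, 105 and 62.0 CPM with zinc. Replicate 4 was the lowest library in both groups, and the ranges overlapped almost fully. The means of 93.2 ± 21.5 and 91.9 ± 20.3 CPM (SD, n = 4 each) gave a log2 difference of -0.02 ± 0.19 (SE). The sign of this difference turned when water replicate 1, water replicate 2 or zinc replicate 4 was left out (0.07, 0.07 and 0.12).

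Hspg2 (ENSMUSG00000028763, GRCm39 chromosome 4, 137196079 to 137298231, plus strand) encodes perlecan, the large heparan sulphate proteoglycan of the basement membrane. Its level was 7.63, 19.5, 11.9 and 13.6 CPM with water and 12.8, 14.7, 14.9 and 12.6 CPM with zinc. The 4 zinc libraries lay inside the range of the water libraries. The log2 difference was 0.06 ± 0.21 (SE), and it was -0.12 without water replicate 1, the lowest library. The coefficient of variation was 37.4% with water and 8.95% with zinc, the reverse of the order in Pxdn.

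**Figure D1:**
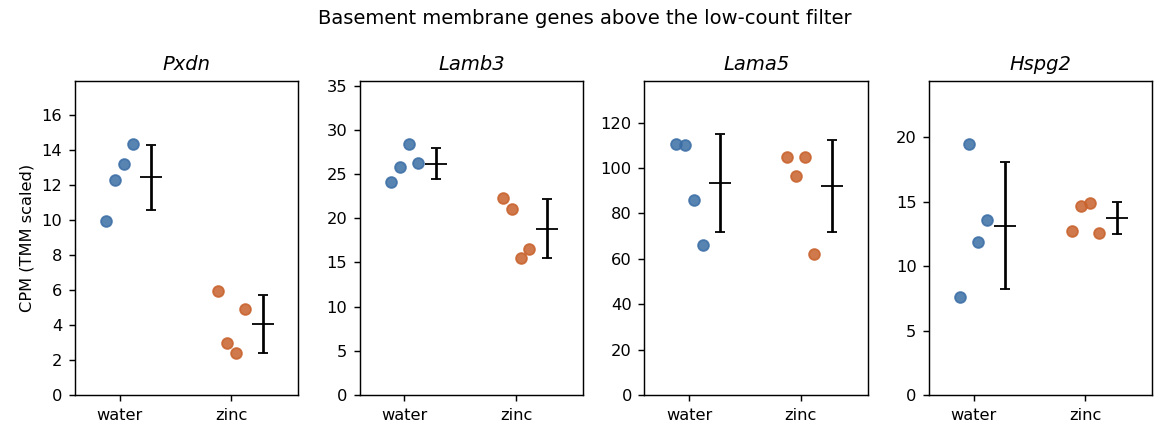
Level of the 4 basement membrane genes with usable counts, in CPM on TMM-scaled library sizes, each on its own axis from 0. Each point is 1 mouse (4 with water, 4 with zinc), and the black bar is the mean with its SD. The groups are apart for Pxdn and, more narrowly, Lamb3, and they overlap for Lama5 and Hspg2.

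The other 5 genes of the list were at or near the counting floor. Col4a2 had 0 counts in all 8 libraries, and Col4a1 had 2 counts, both in water replicate 4. Lama1, the α1 chain of embryonic and some adult basement membranes, had 5 counts, all in zinc replicate 3. Lama3, the α3 chain that pairs with Lamb3 in laminin-332, had 0, 3, 4 and 3 counts in the water libraries and 0 in every zinc library. Nid1 had 0, 1, 0 and 2 counts with water and 0, 4, 3 and 3 counts with zinc. At these counts no fold change or ratio between partner chains is given, and a difference between the groups was not detectable.

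Col4a1 (chromosome 8, 11248423 to 11362826, minus strand) and Col4a2 (chromosome 8, 11362471 to 11499287, plus strand) stand head to head, and their annotated 5′ ends overlap by 356 bases on GRCm39. The near absence of counts extended to the whole family. The 6 collagen IV chains together had 8 counts over the 8 libraries, 3 of them had 0 counts in every library, and no chain had more than 4 counts in any library. Transcripts of Pxdn were thus counted in all 8 libraries (61 to 376 counts each) in which transcripts of its known substrate were at the floor.

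Levels of different genes were compared per kilobase of merged exons (RPKM, on TMM-scaled library sizes). The mean RPKM level over the 8 libraries was 8.09 for Lama5, 2.73 for Lamb3, 0.844 for Hspg2 and 0.660 for Pxdn, and the next gene, Nid1, was at 0.00912. Lama5 had a higher RPKM level than Lamb3 in 8 of 8 libraries, with a mean log2 difference of 1.56 ± 0.43 (SD). Lamb3 was higher than Hspg2 in RPKM in 8 of 8 libraries, by 1.71 ± 0.52 on the log2 scale. Both steps, and the step from Pxdn to Nid1, had an adjusted p of 0.0208 in an exact two-sided sign-flip permutation test over the 8 libraries. That test cannot give a raw p under 0.00781, and the order of the genes came from the same 8 libraries. The lowest Lama5 level, 5.42 RPKM, was over the highest Lamb3 level, 3.46 RPKM. Likewise the lowest Lamb3 level, 1.88 RPKM, was over the highest Hspg2 level, 1.22 RPKM. For both steps the p was therefore at its floor and adds nothing to the 8 of 8 libraries. Nid1 had 0 to 4 counts in a library against 61 to 376 for Pxdn. For that step the test could not have come out otherwise, and nothing is read from its p.

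The order of Hspg2 and Pxdn differed between the groups, so the mean log2 difference in RPKM over all 8 libraries, 0.58 ± 1.13 (SD), is given without a verdict: its spread holds the zinc difference of Pxdn. Hspg2 had the higher RPKM level in 1 of 4 water libraries and in 4 of 4 zinc libraries. The RPKM means were 0.825 ± 0.309 for Hspg2 and 0.996 ± 0.150 for Pxdn with water, and 0.863 ± 0.0772 and 0.324 ± 0.132 with zinc (SD, n = 4 each).

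Among the other genes of the basement membrane, Smoc2, a calcium-binding matrix protein gene that is also a marker of crypt stem cells, had the highest RPKM level, with a mean of 19.0 over all libraries. Next came the laminin β1 gene Lamb1 at 8.30 RPKM, close to the 8.09 RPKM of Lama5, and the fibulin gene Fbln1 at 6.67 RPKM. Several further genes were picked after their values had been seen, as the partners of the listed chains. The laminin γ1 gene Lamc1, which joins Lama5 and Lamb1 in laminin-511, was at 2.01 RPKM. Lama3, the partner of Lamb3, was at 0.00400 RPKM in the same libraries in which Lamb3 was at 2.73 RPKM. Nid2 was at 0.693 RPKM where Nid1 was at 0.00912, and the proteoglycan gene Agrn, which encodes agrin, was at 2.01 RPKM against 0.844 for Hspg2.

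**Figure D2:**
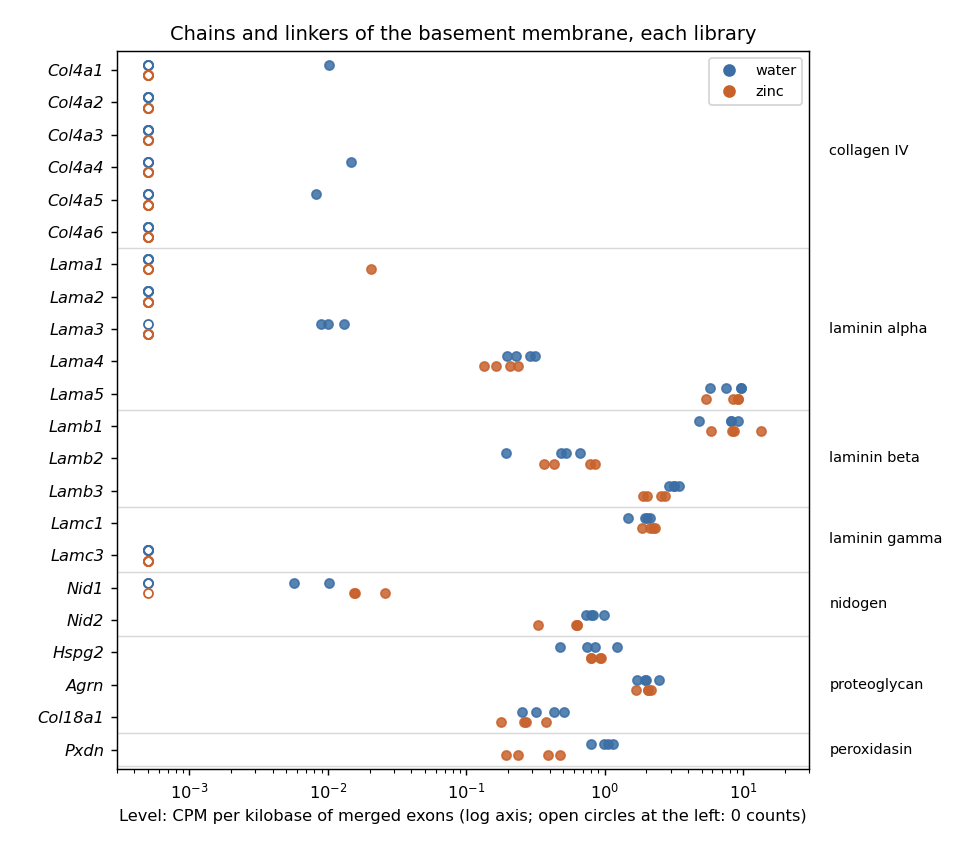
Level of collagen IV chains, a set of laminin chains, nidogens, proteoglycans and Pxdn in each library, in CPM per kilobase of merged exons on a log axis, with 4 water and 4 zinc libraries. Open circles at the left edge stand for 0 counts and may lie on top of each other. The collagen IV rows are almost empty, and Lama5, Lamb1 and Lamc1 are the highest of the laminin α, β and γ chains shown.

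Beside the 9 genes, 30 other basement membrane components were listed, of which 17 passed the low-count filter. edgeR called none of the 17. Of these, 10 had a positive and 7 a negative log2 difference, with a median of 0.01, which was also the median of all 11988 genes. At an unadjusted p under 0.05 there were 2 (4.65% of all genes), and DESeq2 called 1. That gene was Frem2, a Fraser complex gene of the epithelial basement membrane, singled out after its values had been seen. Frem2 was at 2.50, 3.22, 2.54 and 3.02 CPM with water and at 3.56, 7.53, 7.82 and 6.83 CPM with zinc, and the groups did not overlap. Its log2 difference was 1.19 ± 0.25 (SE), with an adjusted p of 0.157 in edgeR and 0.0119 in DESeq2.

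Of the laminin partners, Lamb1 had a log2 difference of 0.26 ± 0.28 (SE) and Lamc1 of 0.17 ± 0.13, neither past the threshold. Nid2 had the same sign as Pxdn and Lamb3, with a log2 difference of -0.59 ± 0.24 (SE). Its level was 4.74 to 6.42 CPM with water and 2.12 to 4.11 CPM with zinc, without overlap, but its adjusted p was 0.998 in edgeR. Of the 17 other components past the filter, 1 was without overlap and lower with zinc, and 2 were without overlap and higher. Over all genes these shares were 1.59% and 1.24%.

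Collagen chains need hydroxylases, chaperones and export factors before they leave the cell. Of 18 such genes, 13 passed the filter and none was called by edgeR or DESeq2, and 0 had an unadjusted p under 0.05. The median log2 difference of the 13 was 0.04. The 3 with the highest CPM were P4hb, protein disulfide isomerase and a subunit of prolyl 4-hydroxylase, Ppib, the prolyl isomerase cyclophilin B, and Mia3, which takes part in export from the endoplasmic reticulum. Their log2 differences were 0.09 ± 0.18, 0.04 ± 0.13 and 0.05 ± 0.15 (SE). The mean level of P4hb was 2473 CPM in the water libraries and 2631 CPM in the zinc libraries. Serpinh1, the collagen-specific chaperone HSP47, chosen after its values were seen, had at most 8 counts in a library and did not pass the filter, as was the case for the collagen IV chains.

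Receptors for basement membrane proteins covered a wide range of levels, from Col17a1 at 0 in every library to Dag1 at a mean of 170.1 CPM. Of 17, 15 passed the filter, none was called by edgeR or DESeq2, and 1 had an unadjusted p under 0.05. Their median log2 difference was -0.04. Dag1, the dystroglycan gene, was at 167 and 173 CPM (means with water and zinc), the laminin-binding integrin α6 gene Itga6 at 101 and 110 CPM, and the integrin β1 gene Itgb1 at 95.7 and 96.7 CPM. The log2 differences were 0.05 ± 0.11 for Dag1, 0.13 ± 0.13 for Itga6 and 0.02 ± 0.10 for Itgb1 (SE).

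**Figure D3:**
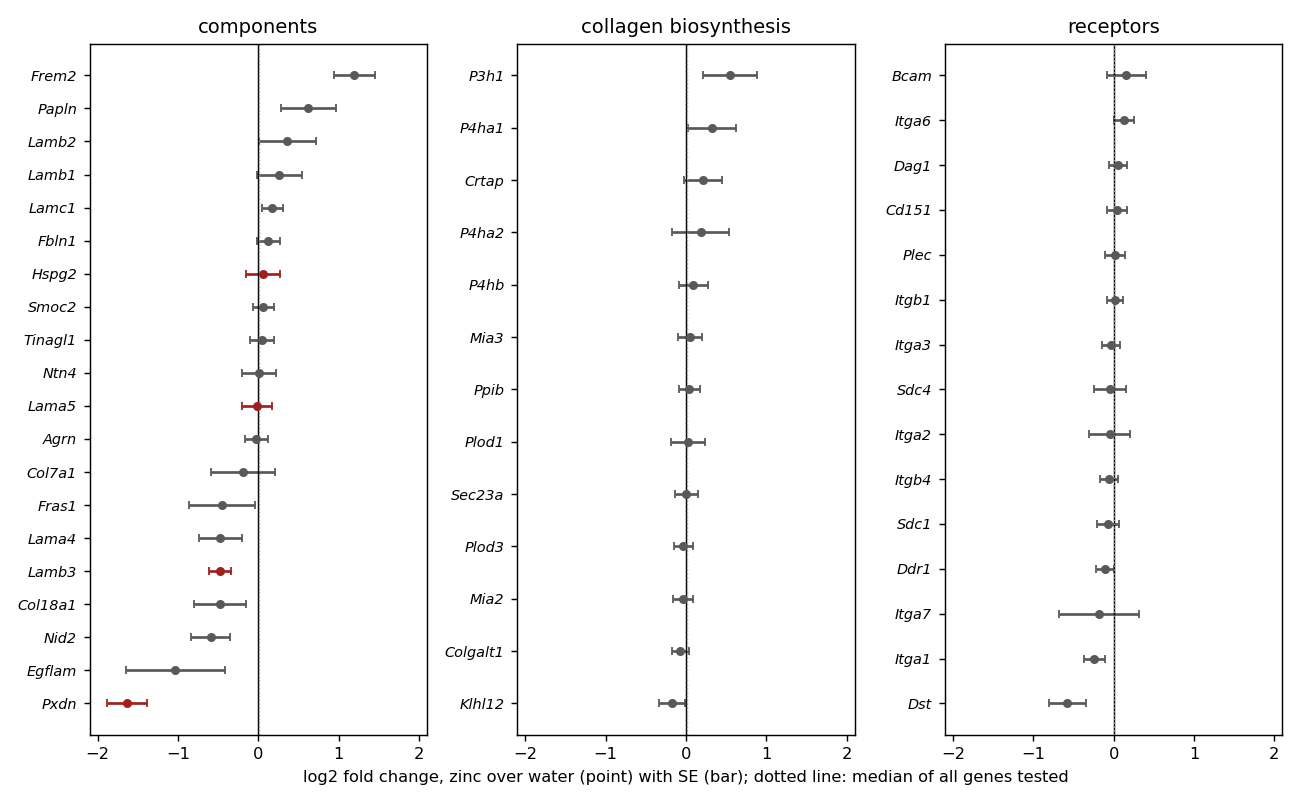
Log2 difference of zinc over water (points) with its SE (bars) for basement membrane components, collagen biosynthesis genes and receptors past the low-count filter, from edgeR. The 4 listed genes are in red and the others in grey, the solid line is 0 and the dotted line the median of all genes. Pxdn stands lowest at -1.63 and Frem2 highest at 1.19, and most others lie near 0.

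Pxdn belongs to the heme peroxidases by its enzyme domain. Of 8 other genes of that kind, 2 passed the filter and edgeR and DESeq2 called none, although both had an unadjusted p under 0.05 with opposite signs. Duox2, which makes hydrogen peroxide at the epithelial surface and was named after its values were seen, had a level of 42.8 ± 7.27 CPM in the water libraries and 27.8 ± 5.96 CPM in the zinc libraries (SD, n = 4 each). The log2 difference of Duox2 was -0.62 ± 0.15 (SE) with an adjusted p of 0.383 in edgeR. Of 14 genes of basement membrane turnover (matrix proteases and their inhibitors), 7 passed the filter and none was called by edgeR or DESeq2. The median of the 7 was 0.06. At an unadjusted p under 0.05, against 4.65% of all genes, there were 3 with differing signs: Mmp14 at -0.31 ± 0.14 (SE), Bmp1 at -0.56 ± 0.24 and Timp2 at 0.84 ± 0.34, named for this after their values were seen.

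Markers of other cell types were summed beside the Pxdn difference. None of the 11 marker lists had sums that separated the groups, and none of their genes was called by edgeR. The endothelial markers (8 genes, 3 at 0 everywhere) summed to 1.03 to 2.33 CPM with water and 1.54 to 3.62 CPM with zinc. The smooth muscle and pericyte markers (7 genes, 3 at 0 everywhere) summed to 0.381 to 1.07 and 0.553 to 1.51 CPM. The immune markers (7 genes, 3 at 0 everywhere) summed to 0 to 1.26 and 0 to 0.119 CPM, and the 4 glial markers to 0.0382 to 0.127 and 0 to 0.0594 CPM, with 2 at 0 everywhere.

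The 5 stem cell markers summed to 4400 to 5780 CPM in the water libraries and 3088 to 4492 CPM in the zinc libraries. Most of this sum was 1 gene, Olfm4, at a mean of 4734 and 3404 CPM (log2 difference -0.48 ± 0.19 SE). Of the 5 stem cell markers, 4 had a negative log2 difference, and the median of the 5 was -0.23. Ascl2 was at -0.24 ± 0.14 and Rnf43 at -0.23 ± 0.13, while the stem cell receptor gene Lgr5 was at -0.02 ± 0.16 and Smoc2 at 0.06 ± 0.13. Goblet cell markers (7 genes) summed to 3758 to 5244 and 4342 to 7607 CPM, enterocyte markers (7) to 321 to 352 and 298 to 362 CPM, enteroendocrine markers (5) to 4.44 to 84.7 and 8.91 to 38.1 CPM, and tuft cell markers (5) to 14.0 to 120 and 17.1 to 81.7 CPM. Most of the enterocyte sum was Vil1, at a mean of 282 and 271 CPM. The enterocyte disaccharidase gene Sis was at 1.63, 1.93, 1.69 and 2.86 CPM with water and 2.38, 22.8, 13.0 and 7.80 CPM with zinc. Sis was thus highest in zinc replicates 2 and 3, where Pxdn was lowest, with a log2 difference of 2.49 ± 0.65 (SE) and an adjusted p of 0.852 in edgeR. Other enterocyte markers with a mean of at least 1 CPM did not mirror Pxdn as closely. Pearson's r with Pxdn on log2(CPM + 1) was -0.88 for Sis, -0.33 for Slc5a1, -0.16 for Apoa4 and 0.008 for Vil1. Of the 5 enterocyte markers that passed the filter, 4 had a positive log2 difference, with a median of 0.33. These marker genes were singled out after their values were seen. No marker of these lists was at 0 in every library. The part of these cell types in the Pxdn difference was not tested.

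The genes whose levels followed Pxdn most closely were found by Pearson's r on log2(CPM + 1) over the 8 libraries, among 11092 genes with a mean of at least 1 CPM. They were Smarcd3, a subunit gene of SWI/SNF chromatin remodelling complexes (r = 0.985, Spearman's rho 0.929), Casp4, which encodes an inflammatory caspase (0.979 and 0.952), Nos2, the inducible nitric oxide synthase gene (0.976 and 1.0), Enox2 (0.963 and 0.810) and Blcap (0.943 and 0.905). The points share the libraries, their scaling and the difference between the groups. With group means removed, r was 0.922 for Smarcd3, 0.912 for Casp4, 0.902 for Nos2, 0.780 for Enox2 and 0.838 for Blcap. All 5, like Pxdn, were lowest in zinc replicates 2 and 3. Because the 5 were chosen by r over these same libraries, both likenesses follow in part from the choice.

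The log2 differences of zinc over water were -3.07 ± 0.49 (SE) for Smarcd3, -1.27 ± 0.25 for Casp4, -3.03 ± 0.89 for Nos2, -0.35 ± 0.13 for Enox2 and -0.31 ± 0.15 for Blcap. In zinc replicates 2 and 3, Smarcd3 was at 0.193 and 0.0790 CPM and Nos2 at 0.0966 and 0 CPM. These levels are near or under the floor of 3 counts, 0.145 and 0.119 CPM there. They limit how exactly the log2 differences and r values of Smarcd3 and Nos2 are known. Only Smarcd3 passed the threshold in edgeR (adjusted p = 0.0199). Among the listed genes, Lamb3 was at rank 41 of the 11092 genes in likeness to Pxdn (r = 0.866, or 0.493 with group means removed), Lama5 was at rank 6858 and Hspg2 at rank 6916.

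**Figure D4:**
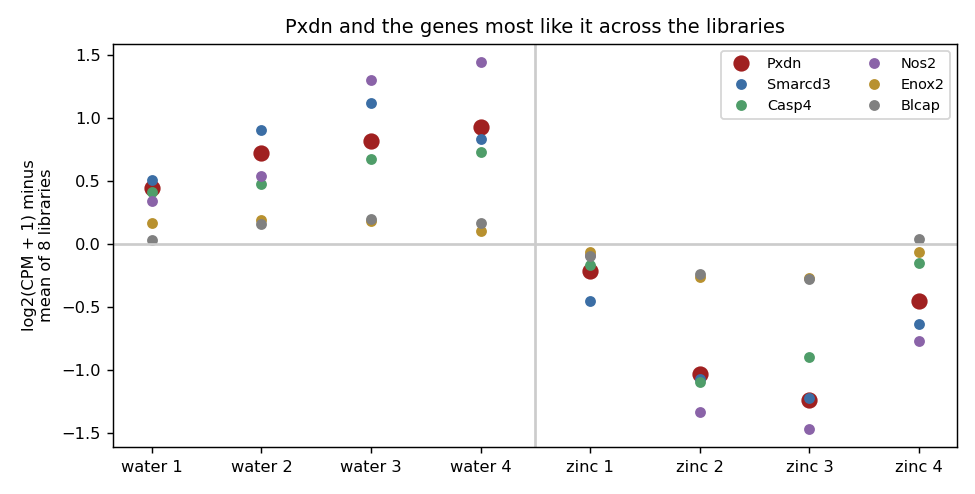
Level of Pxdn (large points) and of the 5 genes most like it, as log2(CPM + 1) minus the mean of the gene over the 8 libraries, in each of the 4 water and 4 zinc libraries. Pxdn, Smarcd3, Casp4 and Nos2 have all water libraries over 0 and all zinc libraries under 0, with zinc replicates 2 and 3 lowest, while Enox2 and Blcap move over a smaller range.

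Some listed genes share exon bases with another gene in the annotation, and the sources used here do not say whether the counting used strand. Pxdn shares none. Lama5 shares 85 bases with Adrm1 on the opposite strand (0.742% of its exon bases), Lamb3 119 bases with G0s2 (1.45%) and Hspg2 45 bases with Ldlrad2 (0.282%) and 422 bases with a long non-coding RNA gene (2.65%).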

How the data were processed

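RNA-seq was measured in sorted Paneth cells of 8 mice, 4 per group by the labels. The authors deposited 1 table of raw counts per Ensembl gene ID. The submitters' processing notes name FastQC 0.12.0, STAR 2.7.0a, DESeq2 and the build mm39, without saying which made the table, and the sources used here name no counting program, annotation or strand setting for it. Symbols and coordinates were matched by ID to GENCODE M39 on GRCm39 (54749 of 55414 IDs).

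The 2 treatments were compared with edgeR 4.0.16 (R 4.3.3; default filter with minimum count 10, TMM, robust quasi-likelihood F test, treatment as the only term, Benjamini-Hochberg over 11988 genes, threshold 0.05). SE is the size of the log2 fold change divided by the root of F. The procedure was also run on simulated counts with known changes, and nothing in the text is drawn from that run. How often a change of a given size would be missed is therefore not stated. RPKM used merged exons, and neighbours in level were compared by exact sign-flip tests (prior count 0.5 before the log), adjusted over 8 pairs, of which the 4 with a gene past the filter are given. Totals of 20760764 to 24117111 counts set the precision. Each library was 1 replicate, since the series' design text gives 4 mice per group. No 2 libraries of a group agreed within sampling noise (chi-square of their counts), which bears only on 1 library being deposited again. Python 3.11.15 made the summaries.

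The 9 genes and the other lists were chosen with earlier results of these data known. Named by rule were the 9 genes, the 5 genes most like Pxdn, and Mt1, Mt2 and Slc30a1. From the lists of other components, biosynthesis and receptors, the rule named the 3 genes with the highest CPM unless one passed the threshold. From any list it named the gene with the smallest p if past the threshold. Further genes whose levels or log2 differences are given, among them Col17a1, were picked after their values had been seen. Alternatives were RLE size factors, library totals, DESeq2 1.42.0 (Wald test), no filter, a replicate block, the longest transcript as length and each library left out. Of the listed genes, 1 is not reported here by name or value and is left out of the figures, but it stays in the list counts and medians.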

Additional observations from a re-analysis of the deposited data

Results flagged for a closer look

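Among 46 groups of 4 libraries (23 genes in 2 treatments), 2 held a library far from the other 3 by Dixon's test at the 95% level, where chance alone marks about 1 group in 20. Nid2 was at 2.12 CPM (44 counts) in zinc replicate 2, while the other zinc libraries were at 4.04 to 4.11 CPM. Dag1 was at 151 CPM (2544 counts) in zinc replicate 1, while the other zinc libraries were at 179 to 183 CPM. The gene set behind this count was put together after values had been seen.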

How the results depend on the processing

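Pxdn was lower with zinc under every alternative. Its log2 difference ran from -1.69 to -1.63 under the 5 other settings, where it kept passing the threshold, and from -1.87 to -1.45 when 1 library was left out, where it passed in 5 of 8 fits (adjusted p from 0.00467 to 0.0850). The call ended without water replicate 2 (-1.65), water replicate 3 (-1.61) or zinc replicate 2 (-1.51), so that 0 to 1 of the 9 genes were called lower. Lamb3 ran from -0.57 to -0.40 and was never called. Lama5 turned sign without water replicate 1 (0.07), water replicate 2 (0.07) and zinc replicate 4 (0.12), within a range of -0.16 to 0.12, and Hspg2 without water replicate 1 (-0.12), within -0.12 to 0.30. The causes were not tested.

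Of all genes, edgeR called 3 higher and 7 lower. DESeq2 called 8 and 28, and without the low-count filter there were 11 and 55. Leaving out 1 library gave 0 to 5 higher and 1 to 12 lower. Frem2 was called higher by DESeq2, without the filter, with the replicate block and without zinc replicate 1 (log2 difference 1.38). Duox2 was called lower without the filter, with the block and without zinc replicate 4 (-0.79), where the median of the heme peroxidases was -0.21.

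Same-numbered libraries correlated from 0.0297 to 0.336 in their deviations from the group means, and 6 of 8 libraries correlated best with their own number, which is a hint from the data only. With the replicate number as a block, 6 genes were called higher and 26 lower, and Pxdn had a log2 difference of -1.69 (adjusted p = 0.00763 by edgeR). With the longest transcript as length, Lama5 stayed over Lamb3 and Lamb3 over Hspg2 in 4 of 4 water and 4 of 4 zinc libraries. The mean log2 differences were 1.20 and 1.94. Another length shifts all libraries alike, so nothing is read from the p of the level steps there. The mean log2 difference of Hspg2 over Pxdn was 0.23. Ratios of Col4a1 to Col4a2 and of Lama3 to Lamb3 were not run because Col4a1, Col4a2 and Lama3 were at or near 0 counts. Depth limits the statements on the 5 genes near the floor.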
